A study of Mus musculus with 2 samples.

Results

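The genes described here encode the secreted and membrane-bound metalloproteases of the MMP, ADAM and ADAMTS families, their TIMP inhibitors, and the plasminogen activators Plau and Plat with the receptor Plaur. They were chosen by name among the gene probes of the arrays: a name that starts with Mmp, Adam, Adamts or Timp and goes on with a digit, or one of the 3 plasminogen system names. The rule found 131 probes of 75 genes, out of 41174 probes of 21263 named genes. RNA of mouse keratinocytes deleted for Chuk (called CHUK-LoxP mutant in the labels, and labelled with Cy5) was set against RNA of wild-type keratinocytes (labelled with Cy3) on 2 two-colour Agilent arrays. Chuk is the gene of IKKα, one of the kinases that act on NF-κB signalling. The labels give no age, strain, promoter of the Cre recombinase or passage for either group, and do not say whether the arrays carry RNA of separate cultures or animals. A p-value here thus speaks only of the spread between the arrays, pooled in part over all tested probes, and that spread may be technical. Both arrays have the same dye orientation, so for a single probe dye and genotype cannot be told apart.

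MMPs are zinc proteases that are made as inactive precursors and, between them, cut collagens, laminins, proteoglycans and growth factor carriers. Keratinocytes at a wound edge are known to make several of them, such as MMP1, MMP9 and MMP10, while skin fibroblasts are the usual source of others. ADAMs are membrane-anchored relatives that release the outer parts of growth factors, receptors and adhesion molecules, whereas ADAMTS proteases are secreted and process procollagens and proteoglycans. TIMPs block the active site of these enzymes, and urokinase, the product of Plau, starts a second protease cascade by turning plasminogen into plasmin.

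Values are log2 ratios of the channel labelled Chuk-deleted over the wild-type channel, given per array and as the mean ± SD (n = 2). Signals are spot intensities after background correction and loess normalisation, in arbitrary units, and are compared only within a probe. A gene rose or fell where limma gave a Benjamini-Hochberg adjusted p under 0.05 over the 13719 genes tested, and all adjusted p-values below are of that fit. The share of gene spots well above background was 64.5% and 57.4% on the arrays in the Chuk-deleted channel, and 59.1% and 53.2% in the wild-type channel. Both probes of Chuk gave ratios above 0, at 0.73 and 0.75 for one and 0.93 and 0.78 for the other, so Chuk itself went against the label of the Chuk-deleted channel. Whether these probes lie in the deleted part of the gene is not given in the sources used here, and an exchange of the channels or labels was not tested. Each direction below rests on the channel labels, and with the channels exchanged every rise would read as a fall and every fall as a rise. The keratinocyte label was met by its markers: 12 of 12 were tested, of which 6 rose and 6 fell, with summed signals of 1425980 and 926044 in the Chuk-deleted channels, against 1071540 and 693796 in the wild-type channels. The median signal of the same markers went the other way, at 37195 in the Chuk-deleted channel and 44411 in the wild-type channel.

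Of the 75 genes, 48 passed the filter on dim probes. Among these 48, 26 rose, 9 fell and 13 did not pass the test, and their median log2 ratio was 0.19 (array 1 gave 0.16, array 2 gave 0.22). Over all genes tested 61.2% were called, 32.9% as higher and 28.3% as lower, and the median was 0.02. Most changes were small. At least 2-fold on both arrays, 1 member was higher (Adamts2), against 1.5% of all genes, and 4 were lower (Adam8, Adamts15, Timp3 and Mmp8), against 3.2% of all genes. The 2 arrays gave the same sign for 41 of the 48 members, and for 12262 of all 13719 genes tested. The rises depend on the scaling. Spike-in scaling, in which the mean of the spiked-in control spots is subtracted from each array, moved the median of all genes by -0.76. It left 1 member that rose, Adamts2 (2.08% of the members tested, against 1.98% of all genes). Under it 41 members fell (85.4%, against 91.1% of all genes). Adam8, Adamts15, Timp3, Mmp8 and Mmp25 were lower under every scaling tried.

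**Figure D1:**
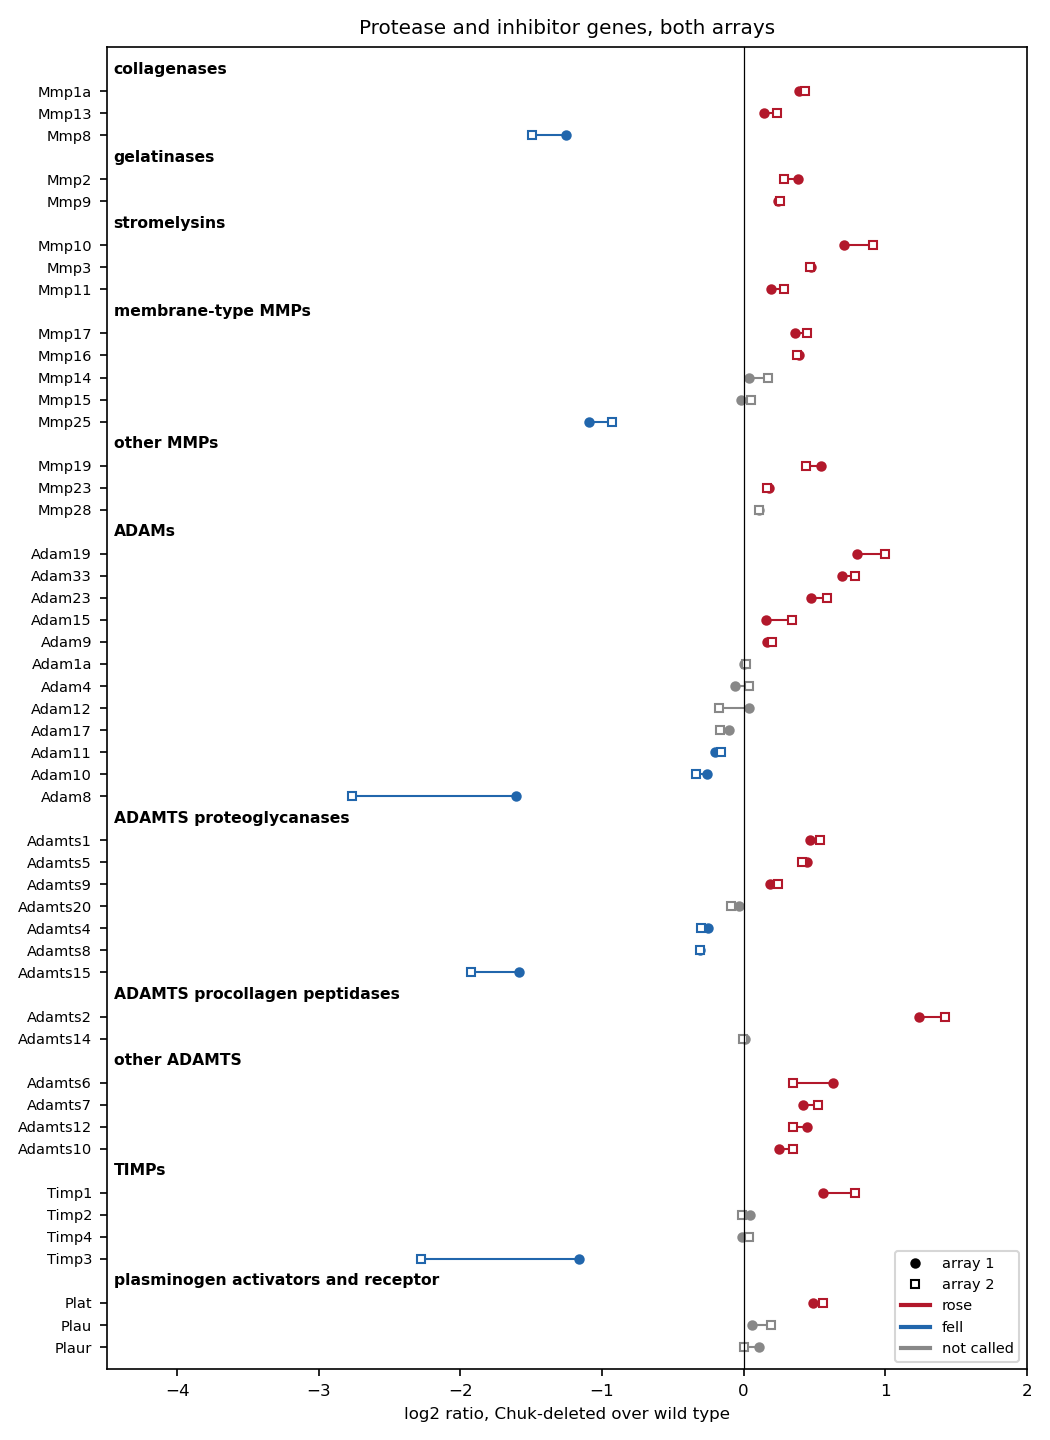
Log2 ratio of the Chuk-deleted over the wild-type channel for the 48 tested genes, grouped by subfamily, with array 1 as filled circles and array 2 as open squares. Most members lie within 1 unit of 0, and Adam8, Timp3, Adamts15, Mmp8 and Mmp25 stand to the left of the others, with Adamts2 farthest to the right.

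The family counts below stand beside the shares over all genes tested, of which 32.9% rose and 28.3% fell. The MMPs rose more often than they fell. Of 21 MMP genes 16 were tested, of which 11 rose and 2 fell, and their median was 0.25 (-0.52 under spike-in scaling, and 0.24 with shifted median centring, which centres without loess and then sets the median of all genes to that of loess). The stromelysins, which cut proteoglycans, laminin and fibronectin and can activate other MMPs, rose in 3 of 3 tested genes (median 0.47, and -0.29 under spike-in scaling). Mmp10, the stromelysin of migrating keratinocytes, had signals of 14623 and 7311 in the Chuk-deleted channels, against 8924 and 3887 in the wild-type channels. This was 1.76-fold higher (log2 ratios of 0.71 and 0.91, adjusted p = 0.000151, limma). Mmp3, or stromelysin 1, had signals of 230478 and 150916 in the Chuk-deleted channels, against 165752 and 109177 in the wild-type channels. The Mmp3 ratios of 0.48 and 0.47 differed little between the arrays (adjusted p = 0.000473, limma). Mmp11, stromelysin 3, rose less, at 0.19 and 0.29. Mmp11 had signals of 895 and 627 in the Chuk-deleted channels, against 782 and 513 in the wild-type channels, and rose by 0.24 ± 0.07 (adjusted p = 0.00939, limma).

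The collagenases, which open the triple helix of fibrillar collagen, did not move together. Mmp8, known as the neutrophil collagenase, had signals of 186 and 98 in the Chuk-deleted channels, against 444 and 276 in the wild-type channels. On each array the Chuk-deleted value lay below the wild-type value of that array. The ratios of -1.26 and -1.49 amount to a 2.59-fold lower signal (adjusted p = 4.01e-05, limma). The Chuk-deleted signal of 98 on array 2 lay near the background, so the size of the fall is uncertain. The software's processed ratio put Mmp8 at -2.22. Mmp13, collagenase 3, had signals of 22133 and 9514 in the Chuk-deleted channels, against 19993 and 8094 in the wild-type channels. Its rise was small (0.19 ± 0.06, adjusted p = 0.0227, limma), and the software's processed log ratio gave 0.21 without a call (adjusted p = 0.0688, limma). Mmp1a is the mouse interstitial collagenase. Mmp1a had signals of 321 and 208 in the Chuk-deleted channels, against 245 and 154 in the wild-type channels, and rose by 0.41 ± 0.03 (adjusted p = 0.000854, limma). Its second probe gave 0.50.

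Mmp3, Mmp1a, Mmp10, Mmp13 and Mmp8 lie in 1 cluster of Mmp genes on chromosome 9, where Mmp8 follows directly on Mmp10 among the coding genes. Along this cluster the 4 genes Mmp13, Mmp3, Mmp1a and Mmp10 rose and Mmp8 fell, while Mmp12, Mmp20 and Mmp7 were too dim to test. The promoters of these 5 genes are shown because the neighbours differ in direction and because AP-1, a dimer of FOS and JUN proteins, is known to act on several MMP promoters through the motif TGACTCA or, on the other strand, TGAGTCA. Each sequence runs from 250 bases before to 50 bases after the RefSeq gene start (GRCm38.p6), 5′ to 3′ along the gene, with that motif in capitals. A match is only a match of letters.
Mmp3 (chr9:7445572-7445871, strand +): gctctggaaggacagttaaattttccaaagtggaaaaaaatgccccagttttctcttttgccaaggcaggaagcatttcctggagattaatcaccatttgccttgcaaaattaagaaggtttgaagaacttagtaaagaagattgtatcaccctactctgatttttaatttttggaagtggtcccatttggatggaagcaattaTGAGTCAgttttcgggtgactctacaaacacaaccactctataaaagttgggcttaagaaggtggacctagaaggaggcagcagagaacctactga
Mmp1a (chr9:7463891-7464190, strand +): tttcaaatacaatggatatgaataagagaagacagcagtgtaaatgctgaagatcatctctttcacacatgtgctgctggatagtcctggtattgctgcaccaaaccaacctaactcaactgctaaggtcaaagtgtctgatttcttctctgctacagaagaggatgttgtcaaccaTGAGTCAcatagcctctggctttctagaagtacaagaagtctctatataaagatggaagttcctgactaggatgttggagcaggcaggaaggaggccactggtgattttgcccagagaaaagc
Mmp10 (chr9:7502092-7502391, strand +): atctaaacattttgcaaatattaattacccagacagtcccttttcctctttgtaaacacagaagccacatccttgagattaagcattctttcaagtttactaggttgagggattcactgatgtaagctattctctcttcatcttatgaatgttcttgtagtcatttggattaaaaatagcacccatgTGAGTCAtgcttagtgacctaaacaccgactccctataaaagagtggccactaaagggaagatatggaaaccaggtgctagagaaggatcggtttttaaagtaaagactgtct
Mmp13 (chr9:7272264-7272563, strand +): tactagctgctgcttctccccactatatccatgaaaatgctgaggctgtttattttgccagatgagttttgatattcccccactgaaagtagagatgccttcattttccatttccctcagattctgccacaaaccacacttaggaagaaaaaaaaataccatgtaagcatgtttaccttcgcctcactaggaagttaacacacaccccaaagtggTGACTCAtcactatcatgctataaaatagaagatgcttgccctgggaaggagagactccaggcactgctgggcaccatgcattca
Mmp8 (chr9:7558179-7558478, strand +): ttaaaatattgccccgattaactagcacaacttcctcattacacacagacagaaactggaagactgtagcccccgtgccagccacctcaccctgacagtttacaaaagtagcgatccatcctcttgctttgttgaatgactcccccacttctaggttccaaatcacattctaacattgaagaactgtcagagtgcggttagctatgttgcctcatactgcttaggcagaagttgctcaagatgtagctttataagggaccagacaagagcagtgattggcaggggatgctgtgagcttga

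The motif began 46 bases before the start in Mmp3, 73 in Mmp1a, 63 in Mmp10 and 35 in Mmp13. The Mmp8 window holds no such letters, which says nothing of the factor. The letters did not follow the calls gene by gene: Plaur, which was not called, has them 69 bases before its start, and Adamts2, Timp1, Mmp11 and Adamts1, which rose, do not have them in any window. Among the genes with a promoter in the table, 5 of 14 that rose held the motif, 0 of 5 that fell, 1 of 10 not called and 4 of 14 not tested. Among the other cluster genes, the windows of the untested Mmp12 and Mmp7 hold the motif as well, 44 and 63 bases before a start. Over all members 10 of 48 promoters held it (20.8%), against 5.2% of 32851 mouse promoters of the same length. Most of these lie in the chromosome 9 cluster of related genes (Mmp3, Mmp1a, Mmp10, Mmp13, Mmp12 and Mmp7). Those outside it were Plaur, Adam19, Adam1b and Adam29, so the share does not describe the members at large. These 48 promoters belong to 43 of the 75 genes. The κB motif, searched by its usual consensus on both strands, was in 3 member promoters, those of Adam19, Adam1b and Mmp25 (6.25%, against 4.51% of all promoters).

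**Figure D2:**
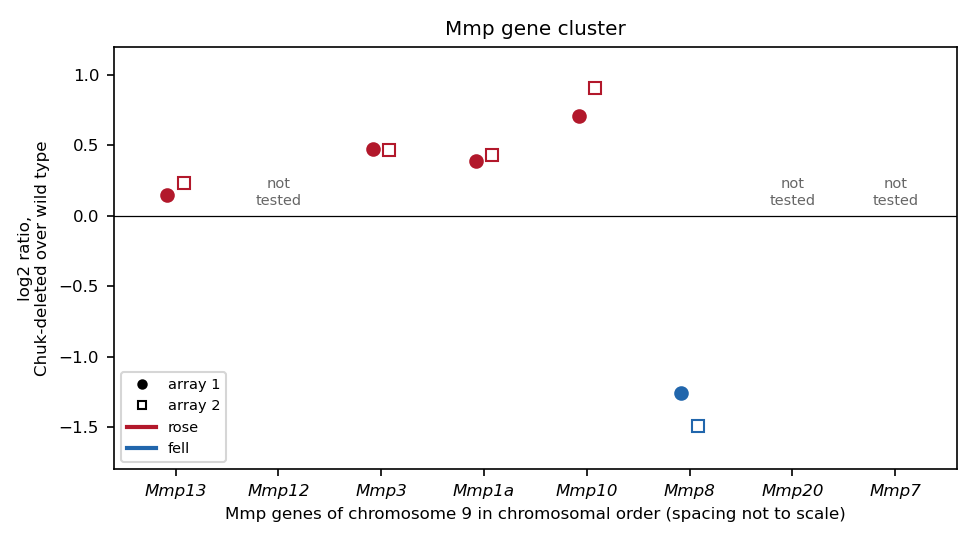
Log2 ratio of the Chuk-deleted over the wild-type channel for the Mmp genes of chromosome 9 in chromosomal order, with array 1 as filled circles and array 2 as open squares. Mmp10 and Mmp8 are neighbours and lie at 0.71 and 0.91 and at -1.26 and -1.49 on the 2 arrays.

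The gelatinases, which digest denatured collagen and the type IV collagen of basement membranes, rose a little (median 0.29, and -0.47 under spike-in scaling). Mmp2 had signals of 3979 and 2303 in the Chuk-deleted channels, against 3050 and 1893 in the wild-type channels (0.33 ± 0.07, adjusted p = 0.00259, limma). Mmp9 is printed 10 times on the array as 1 probe, which shows the error of a spot within an array. Its 10 spots ranged from 0.20 to 0.30 on array 1 and from 0.19 to 0.34 on array 2, with SDs of 0.03 and 0.06. All lay above 0, and their mean of 0.25 passed the test (adjusted p = 0.00609, limma). The other Mmp9 probe gave 0.62 and 0.80, so the size of the Mmp9 change differed between the probes by more than the spread of the spots.

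Among membrane-type MMPs, which stay on the cell surface, 2 of 5 tested genes rose and 1 fell. Mmp14, the activator of pro-MMP2, had signals of 13017 and 16420 in the Chuk-deleted channels, against 12653 and 14570 in the wild-type channels. Its ratio of 0.11 (95% interval from -0.03 to 0.25) did not pass the test, and a second, dimmer Mmp14 probe fell by 0.35, so its direction was not settled. Mmp25, known from leukocytes, had signals of 103 and 87 in the Chuk-deleted channels, against 219 and 165 in the wild-type channels. Mmp25 fell by 1.01 ± 0.11 (adjusted p = 6.09e-05, limma), 2.01-fold lower, and the software's processed ratio gave -2.04. Its Chuk-deleted signals lay near the background, so the size of the fall is uncertain. Mmp17 had signals of 536 and 485 in the Chuk-deleted channels, against 418 and 356 in the wild-type channels, and rose by 0.40 ± 0.06 (adjusted p = 0.00108, limma). Mmp16 had signals of 370 and 244 in the Chuk-deleted channels, against 282 and 188 in the wild-type channels, and rose by 0.38 ± 0.01 (adjusted p = 0.00107, limma). Both differed in the same direction on both arrays. A second Mmp17 probe gave 0.09 without a call, and the other Mmp16 probe was too dim to test. Mmp15 lay at 0.01. Of the remaining MMPs, 2 rose by amounts that were alike on the arrays. Mmp19 had signals of 268 and 204 in the Chuk-deleted channels, against 184 and 150 in the wild-type channels, and rose by 0.49 ± 0.07 (adjusted p = 0.000545, limma). Mmp23 had signals of 558 and 472 in the Chuk-deleted channels, against 493 and 421 in the wild-type channels, and rose by 0.17 ± 0.01 (adjusted p = 0.0266, limma). Meanwhile Mmp28, or epilysin, stood at 0.11 on each array without passing the test.

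**Figure D3:**
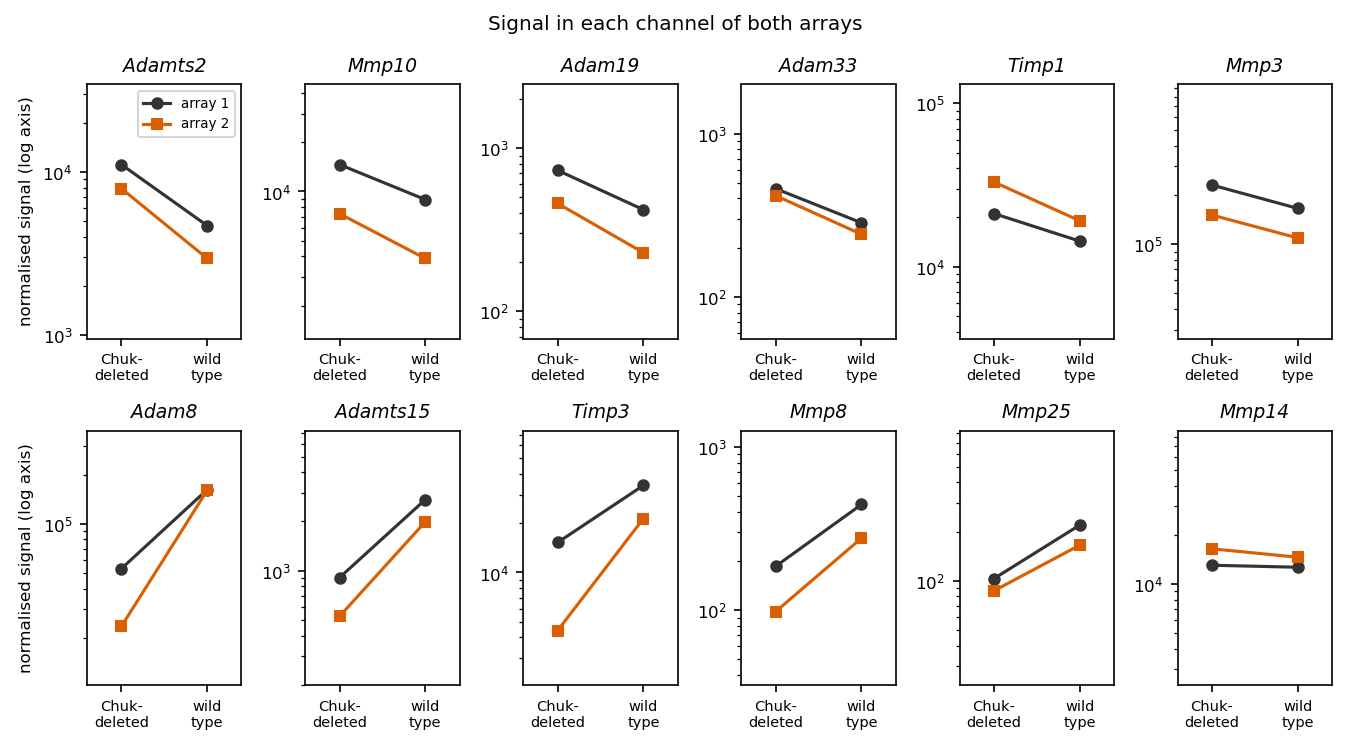
Normalised signal on a log axis in the Chuk-deleted and wild-type channels for 12 members, with a line for each array. The lines of Adamts2, Mmp10, Adam19, Adam33, Timp1 and Mmp3 run higher at the Chuk-deleted end on both arrays, those of Adam8, Adamts15, Timp3, Mmp8 and Mmp25 run lower, and those of Mmp14 are nearly flat.

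Of 29 ADAM genes 12 were tested, of which 5 rose and 3 fell, and their median was -0.00013 (-0.76 under spike-in scaling). Adam8, a sheddase of immune and tumour cells, had signals of 53028 and 23494 in the Chuk-deleted channels, against 161527 and 159831 in the wild-type channels. Signals were not scaled between the arrays, so which channel made the 2 ratios differ cannot be told. The ratios of -1.61 and -2.77 give a mean of -2.19 ± 0.82 (95% interval from -2.77 to -1.60), 4.55-fold lower (adjusted p = 0.000494, limma).

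Adam10 and Adam17 are the main sheddases of keratinocytes, which release Notch ectodomains, cadherins and EGF receptor ligands. Adam10 had signals of 492 and 192 in the Chuk-deleted channels, against 588 and 242 in the wild-type channels, and fell by 0.30 ± 0.05 (adjusted p = 0.00366, limma). Adam17 had signals of 1938 and 949 in the Chuk-deleted channels, against 2085 and 1067 in the wild-type channels, and did not pass the test (-0.14 ± 0.05, adjusted p = 0.062, limma). Plain median centring, under which the all-gene median stood 0.53 higher, put Adam10 at 0.11 and Adam17 at 0.46. Adam9, another sheddase, rose by 0.18 ± 0.03.

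Adam19, known for cutting neuregulins, had signals of 730 and 458 in the Chuk-deleted channels, against 419 and 229 in the wild-type channels. It rose 1.87-fold (0.90 ± 0.14, adjusted p = 0.000113, limma), and its second probe gave 0.60. Adam33, known from mesenchymal cells of the airway, rose by 0.74 ± 0.07 at signals of 459 and 416 in the Chuk-deleted channels, against 284 and 241 in the wild-type channels. Its other probes gave 0.13 and 0.17. Adam23 lacks the protease site and binds integrins. Adam23 had signals of 878 and 697 in the Chuk-deleted channels, against 633 and 464 in the wild-type channels, and rose by 0.53 ± 0.08 (adjusted p = 0.000427, limma). Adam15 was called at 0.25, while its second probe lay at -0.12. Adam11, also without protease activity, fell by 0.18 ± 0.03 near the background (signals of 98 and 99 in the Chuk-deleted channels, against 114 and 111 in the wild-type channels). Adam1a, Adam4 and Adam12 lay between -0.07 and 0.01 and were not called.

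Of 18 ADAMTS genes 13 were tested. Of them 8 rose and 3 fell, and their median was 0.30 (-0.46 under spike-in scaling, and 0.03 with shifted median centring). Adamts2, which removes the amino-terminal propeptide of fibrillar procollagens, had signals of 11062 and 7889 in the Chuk-deleted channels, against 4676 and 2941 in the wild-type channels. The ratios of 1.24 and 1.42 amount to a 2.52-fold higher signal (adjusted p = 3.23e-05, limma). All 4 Adamts2 probes rose, from 0.23 to 1.33, the last being the probe that stands for the gene, and their average was 0.74. The other procollagen peptidase that was tested, Adamts14, lay at 0.0035.

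Adamts15 belongs to the ADAMTS enzymes that cut aggrecan and versican. It had signals of 906 and 524 in the Chuk-deleted channels, against 2721 and 1990 in the wild-type channels. Each Chuk-deleted value lay below the wild-type value of its own array, and the fall of 1.76 ± 0.24 is 3.38-fold (adjusted p = 3.42e-05, limma). Adamts8, its neighbour among the coding genes of chromosome 9 and of the same group of enzymes, fell by 0.31 on each array at signals of 128 and 112 in the Chuk-deleted channels, against 158 and 138 in the wild-type channels. Adamts4 encodes aggrecanase 1. Adamts4 had signals of 454 and 273 in the Chuk-deleted channels, against 540 and 337 in the wild-type channels, and fell by 0.27 ± 0.04 (adjusted p = 0.00464, limma). Against these, Adamts1 rose by 0.50 ± 0.05 at signals of 35533 and 15420 in the Chuk-deleted channels, against 25675 and 10630 in the wild-type channels (adjusted p = 0.000419, limma). Adamts5 had signals of 713 and 442 in the Chuk-deleted channels, against 522 and 331 in the wild-type channels, and rose by 0.43 ± 0.02 (adjusted p = 0.000687, limma). Adamts9 rose by 0.21 ± 0.04, so the 7 proteoglycanases split into 3 that rose, 3 that fell and Adamts20, which was not called. Adamts7 had signals of 1198 and 1113 in the Chuk-deleted channels, against 894 and 774 in the wild-type channels, and rose by 0.47 ± 0.07 (adjusted p = 0.00063, limma). The next 3 had signals close to background. Adamts6 had signals of 204 and 117 in the Chuk-deleted channels, against 132 and 92 in the wild-type channels, and rose by 0.49 ± 0.20 (adjusted p = 0.00203, limma). Adamts10 had signals of 222 and 224 in the Chuk-deleted channels, against 187 and 176 in the wild-type channels, and rose by 0.30 ± 0.07 (adjusted p = 0.00402, limma). Adamts12 had signals of 184 and 148 in the Chuk-deleted channels, against 135 and 116 in the wild-type channels, and rose by 0.40 ± 0.07 (adjusted p = 0.0012, limma). With shifted median centring Adamts6, Adamts10 and Adamts12 lay between 0.01 and 0.05 without a call, while the software's processed ratio called them higher, with Adamts6 at 1.15, Adamts10 at 0.55 and Adamts12 at 0.89.

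All 4 TIMPs were tested, of which 1 rose and 1 fell (median 0.02, and -0.75 under spike-in scaling). Timp3, the inhibitor that binds to the matrix and also blocks ADAM17 and several ADAMTS enzymes, had signals of 15270 and 4407 in the Chuk-deleted channels, against 34154 and 21393 in the wild-type channels. The fall was larger on array 2 (-2.28) than on array 1 (-1.16), with a mean of -1.72 ± 0.79 (95% interval from -2.28 to -1.16), 3.3-fold lower (adjusted p = 0.0011, limma). Timp1, an inhibitor of most MMPs, had signals of 21137 and 33019 in the Chuk-deleted channels, against 14334 and 19093 in the wild-type channels. It rose 1.6-fold by its brighter probe (0.56 and 0.79, adjusted p = 0.000375, limma) and by 0.42 by the other, and lay at -0.09 under spike-in scaling. Timp2, which takes part in the activation of pro-MMP2 by MMP14, lay at 0.05 and -0.01 (95% interval of the mean from -0.11 to 0.15). Timp4 was at the edge of detection, and on neither array was its wild-type channel well above background.

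Of the 3 plasminogen system genes, Plat rose and the other two were not called (median 0.13, and -0.64 under spike-in scaling). Plat, tissue plasminogen activator, had signals of 1519 and 1074 in the Chuk-deleted channels, against 1082 and 728 in the wild-type channels, and rose by 0.53 ± 0.05 (adjusted p = 0.000361, limma). A dimmer Plat probe gave 0.10 without a call. Plau did not pass the test (0.06 and 0.19, adjusted p = 0.0972, limma). Its receptor gene Plaur had signals of 25447 and 14322 in the Chuk-deleted channels, against 23568 and 14322 in the wild-type channels, and was not called, while a second Plaur probe fell by 0.28.

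The 27 untested members were not well above background in either channel on at least 1 of the arrays. They include 17 ADAM genes, most of them known from testis and epididymis. These 17 were Adam1b, Adam2, Adam3, Adam5, Adam6a, Adam7, Adam18, Adam21, Adam22, Adam24, Adam25, Adam26a, Adam28, Adam29, Adam30, Adam32 and Adam39. Besides the ADAMs, the filter left out Mmp7, Mmp12, Mmp20, Mmp21, Mmp24, Adamts3, Adamts13, Adamts16, Adamts18 and Adamts19. The macrophage elastase gene Mmp12 had signals of 73.2 and 72.0 in the Chuk-deleted channels and 78.0 and 67.3 in the wild-type channels, and no difference could be detected at this level.

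Genes that act together with these proteases were counted in lists. Each list count is to be read beside all genes tested, of which 32.9% rose and 28.3% fell. The list of pericellular partners holds other surface proteases, inhibitors and receptors, of which 11 rose and 8 fell of 20 tested (median 0.21, and -0.55 under spike-in scaling). Serpinb2, an inhibitor of plasminogen activators that differentiating keratinocytes make, fell by 2.99 ± 1.06. Bmp1, the procollagen C-proteinase that acts on the same molecules as Adamts2, rose by 1.34 ± 0.25, and its relative Tll1 by 0.95 ± 0.05. The membrane serine protease gene Tmprss4 had the largest fall of the list (-3.10 and -4.23). Reck, a membrane inhibitor of MMPs, rose by 0.59 on each array.

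Genes of the maturation and traffic of ADAMs and MMPs fell in 12 and rose in 4 of 19 tested (median -0.25, and 0.41 with plain median centring). The proprotein convertase gene Pcsk6 fell by 1.71 ± 0.78 and Pacsin3, which binds ADAM tails, by 1.68 ± 0.25. Of the tetraspanins that carry ADAM10 through the cell, Tspan10, Tspan33, Tspan14, Tspan15 and Tspan5 fell and Tspan17 rose. Tspan10 fell by 1.14 ± 0.07, with its Chuk-deleted channel well above background on 1 array, and Tspan33 by 0.90 ± 0.20. Frmd8, a partner of the iRhoms that bring ADAM17 to the surface, fell by 0.90 ± 0.16. Furin, which removes the propeptide of many of these proteases, fell by 0.25 ± 0.02.

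Membrane proteins known to be shed by ADAMs showed no common direction, with 13 that rose and 14 that fell of 35 tested (median -0.05, and 0.08 with shifted median centring). The Notch ligand genes Dll1 (1.54 and 1.67) and Jag1 (1.37 and 1.52) and the EGF receptor ligand gene Epgn (1.27 and 1.42) rose. Btc, another ligand of that receptor, fell by 1.54 ± 0.48, with the Chuk-deleted channel well above background on 1 array.

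ADAMTS-like genes and ADAMTS substrates rose in 9 and fell in 3 of 15 tested (median 0.58, and -0.18 under spike-in scaling). Of these, Fbn1, Col1a1, Col1a2 and Col3a1 are also among the fibroblast markers counted below, of which 11 of 13 rose, and the part of fibroblast RNA in the list's values was not tested. The matrix genes Fbln2 (1.84 ± 0.38), Thbs2 (1.60 ± 0.21), Fbn1 (1.27 ± 0.26) and Col1a2 (1.02 ± 0.19) led. The procollagens that Adamts2 processes were among them, with Col1a1 at 0.84 ± 0.07 and Col3a1 at 0.62 ± 0.06. Of the proteoglycans cut by Adamts15, Acan fell by 0.22 ± 0.04, with its Chuk-deleted channel well above background on 1 array. Vcan did not pass the test (0.14 ± 0.03).

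Transcription factors known to bind protease promoters fell in 9 and rose in 5 of 23 tested (median -0.06, and 0.43 with plain median centring). Elf3 (-0.75 and -1.25), Atf3 (-0.71 and -1.06), Jund (-0.66 ± 0.09) and Runx2 (-0.65 ± 0.06) fell most. Of the AP-1 genes, Jun rose by 0.24 ± 0.10 and Fosl2 fell by 0.56 ± 0.09, while Fos lay at -0.03 and -0.04 and Fosl1 at 0.19 and -0.03, both without a call.

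**Figure D4:**
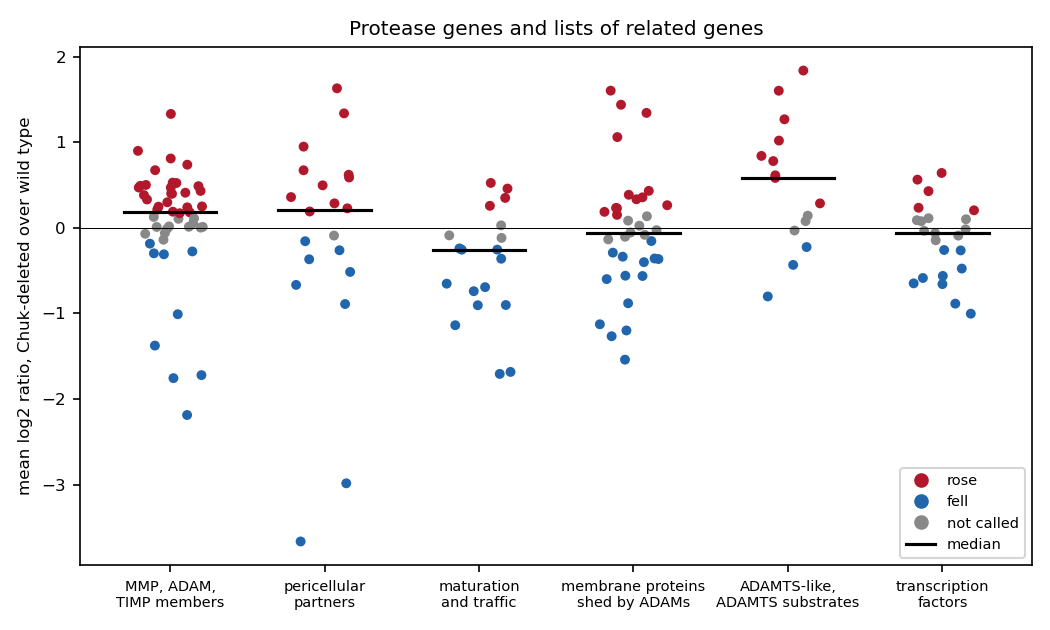
Mean log2 ratio of the Chuk-deleted over the wild-type channel for the 48 members and for 5 lists of related genes, with 1 point a gene, coloured by call, and a bar at each median. The medians run from -0.25 for maturation and traffic to 0.58 for ADAMTS-like genes and substrates, and each list holds genes on both sides of 0.

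Markers of other cells moved on the same arrays. Of 13 fibroblast markers 11 rose and 1 fell (median 0.73, and -0.04 under spike-in scaling). Their summed signals were 269690 and 162477 in the Chuk-deleted channels, against 165762 and 89118 in the wild-type channels. The marker that fell was Dcn (-0.60 ± 0.03). The fibroblast markers stand beside the rises of Adamts2, Mmp2, Adam33 and Timp1, which fibroblasts also express. Of other members that fibroblasts express, Timp3 fell by 1.72, and Timp2 (0.02) and Mmp14 (0.11) were not called. The part of fibroblast RNA in these values was not tested. Of 11 macrophage and Langerhans cell markers 7 were tested, of which 4 fell, while Ptprc, Cd207, Itgam and Itgax were too dim in both channels. Their median was -0.54, and -0.41 with plain median centring. Their summed signals were 4232 and 2829 in the Chuk-deleted channels, against 5849 and 3964 in the wild-type channels. Cd68 (0.13), Cd14 (-0.15) and Fcer1g (-0.12) were tested without a call. For Adgre1 and Csf1r the Chuk-deleted channel was well above background on 1 array. Adgre1 (-1.27 and -1.03), Csf1r (-0.83 and -0.79), Lyz2 (-0.96 and -1.07) and Tyrobp (-0.66 and -0.42) fell. Of members that leukocytes also express, Mmp8, Mmp25 and Adam8 fell, while Mmp9 rose by 0.25. The part of such cells in these values was not tested. In RNA of a whole culture, fewer cells of a type and less RNA per cell cannot be told apart. Of 8 melanocyte markers 8 fell, with summed signals of 25810 and 14499 in the Chuk-deleted channels, against 61457 and 39801 in the wild-type channels, and of 8 endothelial markers 2 were bright enough to test.

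Spike-in scaling subtracts a constant from each array, so under it the median of the members minus that of all genes was 0.17, as under loess. It was 0.19 with median centring and with the software's ratio. The families did not keep their places: the ADAMTS median minus that of all genes was 0.28 under loess and 0.0058 with shifted median centring, and that of the TIMPs was -0.0052 and -0.24. With shifted median centring 35.4% of the members fell, against 32.7% of all genes. Among called members not yet given so, the software's ratio moved the size by over 1.5 times for Adam10 at -0.46, Adam11 at -0.41, Adamts8 at -0.73, Mmp19 at 0.84 and Mmp1a at 0.65. Shifted median centring did so for Adam11 at -0.78, Adam15 at 0.41, Adam9 at 0.40, Adamts1 at 0.76, Adamts8 at -0.74, Mmp13 at 0.42, Mmp16 at 0.21, Mmp19 at 0.24, Mmp1a at 0.19 and Mmp3 at 0.89. The mean over probes did so for Adam15 at 0.07, Adam33 at 0.35, Adamts9 at 0.33, Mmp17 at 0.25, Mmp9 at 0.48 and Plat at 0.31. Across the 7 alternatives that do not move the median of all genes by over 0.1, 17 of the 26 rises and 8 of the 9 falls kept their direction and call. Those that did not keep it were the rises of Adam9, Adam15, Adamts6, Adamts9, Adamts10, Adamts12, Mmp11, Mmp13 and Mmp23 and the fall of Adam11, each under 0.5 in size. Of the 13 members without a call, 0 stayed without one across the same 7 alternatives. Most of these new calls came with shifted median centring, a setting added after seeing the data. It called 26 members higher and 17 lower, of which 22 and 9 had that call under loess. The mean over probes called 25 higher and 10 lower, of which 25 and 9 had it. Mmp14, for example, was called higher at 0.33 with shifted median centring. A missing call above is thus no sign of an unchanged gene.

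**Figure D5:**
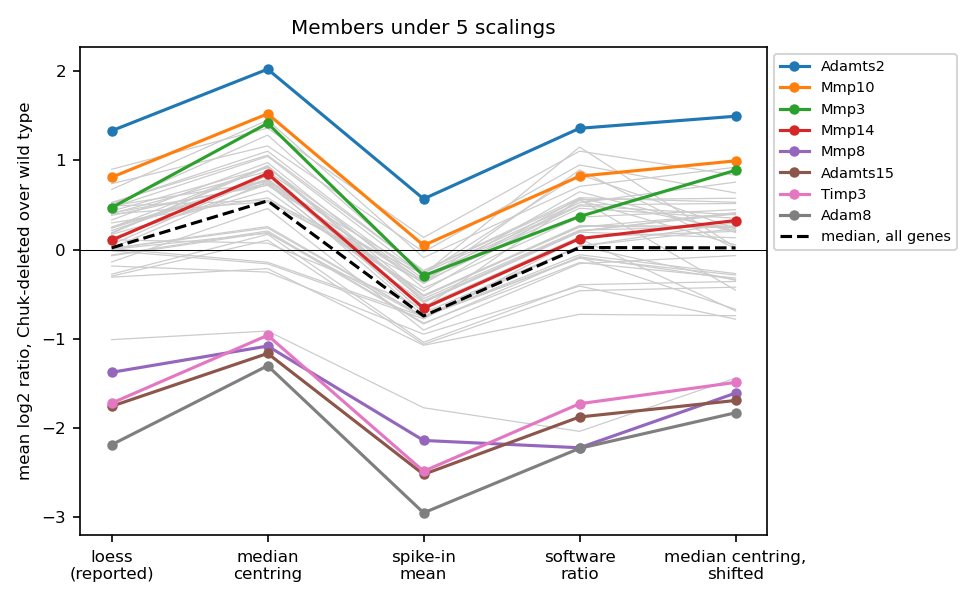
Mean log2 ratio of the Chuk-deleted over the wild-type channel for the 48 members under 5 scalings, with 8 members in colour, the others in light grey and the median of all genes as a dashed line. Most members shift with the dashed line where it moves. With shifted median centring the line stays at 0.02, yet members still move. Adam8, Timp3, Adamts15 and Mmp8 stay below 0 throughout while Adamts2 stays above 0.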

How the data were processed

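Scanner output came from Agilent Feature Extraction (version 9.1.3.1), per the file headers. It holds a mean spot intensity and a median local background intensity per channel, both uncorrected per the file headers, and a log10 ratio of the software's processed signals. The deposited value table matched that log10 ratio within 0.005 at 45018 of 45018 spots per array. Flags of 0 or 1 are deposited beside them. Here the intensities were corrected with normexp (offset 50) in limma 3.58.1 under R 4.3.3 and normalised by loess within arrays, control spots at weight 0. Outlier spots were dropped and spots of a probe averaged. A probe was tested if either channel was well above background on both arrays (lmFit and eBayes, mean log2 ratio against 0, two-sided, Benjamini-Hochberg adjusted). The tested probe of highest mean intensity stood for its gene, and p-values of genes were adjusted over genes. Of 41174 probes, 23374 were named by RefSeq accession (GRCm38.p6), 9652 by symbol or synonym and 1739 by the file, and 6409 had no name. Promoters are RefSeq's. The members and lists were chosen with earlier results of these data known. The naming rule gives values for up to 5 called genes a subfamily and 4 a list, and further genes were named after their values were seen. The value of a gene that the rule names is not reported here. Alternatives covered scaling, background, filter, probe choice, variance model and leaving out each array. The fit was tested on simulated data. Protein sequences were not used here.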

Additional observations from a re-analysis of the deposited data

How the results depend on the processing

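Directions rest on the scaling. Plain median centring gave 10257 genes that rose and 1002 that fell, 8 members at least 2-fold higher and 1 lower on both arrays, and a member median of 0.74. Spike-in scaling gave 1 member that rose and 41 that fell (2.08% and 85.4%), against 272 genes that rose and 12495 that fell (1.98% and 91.1%). It gave 0 members 2-fold higher and a member median of -0.58. The construction of both shifts all genes. The software's ratio gave 2 members 2-fold higher and the mean over probes gave 0. With no filter on dim probes, which adds 27 members, the median was 0.014. Shifted median centring, added after seeing the data, gave 17 members that fell. It differs from the reported scaling only by the missing loess step and a constant per array, so any trend of the ratio with intensity stays in it. For the software's ratio the cause was not tested. Leaving out each array gave 1 to 2 members 2-fold higher, 4 to 5 lower and a median of 0.16 to 0.22. The ratio of each array already pairs its channels. Log2 ratios of single members that changed sign under spike-in scaling were Adamts14 -0.76, Adamts1 -0.26, Adamts5 -0.33, Adamts9 -0.55, Adam33 -0.024, Adam23 -0.23, Adam15 -0.51, Adam9 -0.58, Adam1a -0.75, Timp1 -0.088, Timp2 -0.75, Timp4 -0.75, Mmp1a -0.35, Mmp13 -0.57, Mmp2 -0.43, Mmp9 -0.51, Mmp17 -0.36, Mmp16 -0.38, Mmp14 -0.66, Mmp15 -0.75, Adamts6 -0.27, Adamts7 -0.29, Adamts12 -0.36, Adamts10 -0.46, Mmp19 -0.27, Mmp23 -0.59, Mmp28 -0.65, Plat -0.24, Plau -0.64, Plaur -0.71, Mmp3 -0.29 and Mmp11 -0.52. Under plain median centring they were Adamts4 0.17, Adam17 0.46 and Adam10 0.11, and, with no call in either setting, Adam12 0.19, Adamts20 0.21 and Timp4 -0.14, and under shifted median centring Adamts14 -0.34, Adam1a -0.28, Timp4 -0.67, Mmp15 -0.27 and Mmp28 -0.45. Other sign changes, with no call in either setting, were 4 members under the software's ratio, 3 without background correction, 2 by the mean over probes and 1 with no filter. The protein motif description planned was not run. Signals near background limit the dim members, and 2 arrays limit the precision of all.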
